A study of Mus musculus with 23 samples.

Results

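Gene expression in the liver was compared with that in the heart of untreated mice, using the 4 control livers and the 4 control hearts among the 23 arrays of a study of oil palm phenolics (OPP). The donors were male BALB/c mice, 12 weeks of age, that had received a normal diet with distilled water for 6 weeks and were fasted overnight before they were killed with diethyl ether and bled. The arrays of OPP-treated mice, given 1500 ppm gallic acid equivalent in their drinking water, and the control spleens were used only where named below. Each array was hybridised with RNA of 1 labelled organ sample on an Illumina MouseRef-8 Version 1 BeadChip, and the study had kept the RNA samples of highest integrity and removed outlying arrays by clustering. The labels do not say which liver and which heart came from the same mouse. All 8 arrays chosen by their titles were used, and of the 24048 probes on the chip 9792, for 7077 named genes, were detected (detection p below 0.01) on at least 3 arrays of either organ and were tested.

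The liver is composed largely of hepatocytes, which secrete most plasma proteins, make bile acids and urea, store and release glucose and modify foreign compounds. The heart is composed by mass largely of cardiomyocytes, whose myofibrils contract under the control of calcium released from the sarcoplasmic reticulum and whose many mitochondria burn fatty acids, lactate and ketone bodies. Hepatocyte genes are known to be controlled by factors such as HNF1, HNF4 and C/EBP, and cardiomyocyte genes by SRF, MEF2, GATA and TEAD factors. In whole organs, fewer cells of a type and less RNA per cell cannot be told apart.

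The regulatory sequence of a few genes from both ends of the comparison is shown because their promoters carry short motifs bound by these factors. The 250 bases before the transcription start are given 5′ to 3′ on the gene's own strand (RefSeq, GRCm38.p6). Capitals mark, on either strand, GTTAAT (HNF1 half-site) and TTGCNNAA (C/EBP type) in the liver genes, albumin (Alb), fibrinogen alpha (Fga) and glucose 6-phosphatase (G6pc).
Alb (chr5:90460620-90460869, plus strand): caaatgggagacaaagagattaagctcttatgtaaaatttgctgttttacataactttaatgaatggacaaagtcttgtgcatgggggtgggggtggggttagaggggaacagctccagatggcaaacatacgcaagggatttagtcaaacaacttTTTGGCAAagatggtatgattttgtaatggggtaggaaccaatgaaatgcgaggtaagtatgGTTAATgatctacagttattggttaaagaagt
Fga (chr3:83025903-83026152, plus strand): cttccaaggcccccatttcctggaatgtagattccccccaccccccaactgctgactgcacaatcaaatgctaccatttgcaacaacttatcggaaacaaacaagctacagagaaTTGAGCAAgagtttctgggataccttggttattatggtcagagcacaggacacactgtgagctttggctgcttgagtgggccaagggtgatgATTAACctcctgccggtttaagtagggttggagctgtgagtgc
G6pc (chr11:101367466-101367715, plus strand): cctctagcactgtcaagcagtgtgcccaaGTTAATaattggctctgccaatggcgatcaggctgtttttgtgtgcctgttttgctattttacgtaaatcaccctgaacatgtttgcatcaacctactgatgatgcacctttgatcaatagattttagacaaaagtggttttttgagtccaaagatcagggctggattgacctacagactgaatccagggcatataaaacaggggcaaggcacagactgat
In the heart genes, skeletal alpha-actin (Acta1), essential myosin light chain (Myl3) and cardiac troponin T (Tnnt2), capitals mark the CArG box bound by SRF, CATTCCT, the motif of TEAD factors, and AGATAA, a motif of zinc finger factors such as Gata4.
Acta1 (chr8:123894776-123895025, minus strand): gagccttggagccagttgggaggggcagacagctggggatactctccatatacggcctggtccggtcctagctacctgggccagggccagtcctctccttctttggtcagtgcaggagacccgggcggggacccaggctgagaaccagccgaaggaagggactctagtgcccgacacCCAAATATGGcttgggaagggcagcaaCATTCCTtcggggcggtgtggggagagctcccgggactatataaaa
Myl3 (chr9:110763428-110763677, plus strand): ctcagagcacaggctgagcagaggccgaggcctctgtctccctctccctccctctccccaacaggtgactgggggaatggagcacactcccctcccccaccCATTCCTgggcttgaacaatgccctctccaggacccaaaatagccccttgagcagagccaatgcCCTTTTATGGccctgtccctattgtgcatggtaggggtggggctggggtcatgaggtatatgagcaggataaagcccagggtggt
Tnnt2 (chr1:135836084-135836333, plus strand): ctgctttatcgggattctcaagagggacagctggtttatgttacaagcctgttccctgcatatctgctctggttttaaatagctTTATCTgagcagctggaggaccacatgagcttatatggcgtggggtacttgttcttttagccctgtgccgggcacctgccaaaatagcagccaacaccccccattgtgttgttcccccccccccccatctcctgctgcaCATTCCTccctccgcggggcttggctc
These genes were chosen after their values were seen. Among the genes at least 16-fold higher in liver, 221 of 272 had a promoter in the table, and GTTAAT was present in 34 of them (15.4%), against 10 of 118 (8.47%) of the genes at least 16-fold higher in heart, 4.22% of 5804 tested genes and 6.52% of all 27025 genes. TTGCNNAA was present in 20.4%, 9.32%, 8.24% and 9.55% of these 4 sets in the same order. CATTCCT was present in 12.7% of the heart set and 6.33% of the liver set, against 3.95% of tested and 4.43% of all genes. The CArG box was present in 8 of 118 promoters of the heart set (6.78%) and 3 of 221 of the liver set (1.36%), against 1.17% of tested and 1.40% of all genes. AGATAA was present in 18.1% of the liver set and 14.4% of the heart set, against 6.56% of tested and 10.3% of all genes. A match says only that the letters occur.

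The organs differed in most of what was measured. With limma and Benjamini-Hochberg adjustment, 8047 of 9792 probes (82.2%) differed at an adjusted p below 0.05 (82.3% of genes at their brightest probe), 3401 (34.7%) higher in liver and 4646 (47.4%) higher in heart. With so many calls, size and detection carry the comparison, and a difference is called large here where it passed the test and was at least 4-fold. The level on an organ in which a probe was never detected was set at the lowest signal of a detected probe. Such a fold is a lower bound under the background correction and offset used here, and not under others. By that definition 949 probes (9.69%) were large in liver and 876 (8.95%) in heart, or 717 (10.1%) and 678 (9.58%) of the 7077 genes at their brightest probe. Of these genes 34.9% were called higher in liver and 47.3% in heart, and the list counts below are to be read beside these shares. Differences of at least 16-fold, measured the same way, were reached by 353 probes in liver and 187 in heart, and of at least 100-fold by 91 and 30. The median difference, liver minus heart, over all tested probes was -0.27 on the log2 scale and 0.00 with undetected levels at the bound. Of the 7077 genes, 1022 were detected on some but not all arrays of an organ, and 261 of these differed by at least 4-fold as fitted, 229 of them also with the undetected arrays at the floor. For such genes the fold given below is that lower bound. In 78.4% of probes every array of an organ lay above every array of the other.

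For the 4904 probes detected on all 8 arrays neither level is at the floor. Their median difference was 0.22, and 432 (8.81%) were large in liver and 257 (5.24%) in heart. The genes furthest apart among them were, in liver, Itih4 (8.52), Ahsg (8.48), Serpina1b (8.27), Apoc1 (8.12) and haptoglobin (Hp, 7.77), all of them secreted proteins. Ahsg (fetuin-A), which keeps calcium phosphate in solution, was at 14.88, 14.92, 14.92 and 14.51 in livers and 6.16, 6.30, 6.43 and 6.43 in hearts. In heart they were Cryab (-7.18), Atp5a1 (-5.88), Atp2a2 (-5.85), Lpl (-5.67) and Asb2 (-5.66). Asb2, a subunit of ubiquitin ligases in muscle, was at 7.27, 6.94, 7.65 and 6.67 in livers and 12.76, 12.74, 12.82 and 12.85 in hearts, and neither gene overlapped between the organs.

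**Figure D1:**
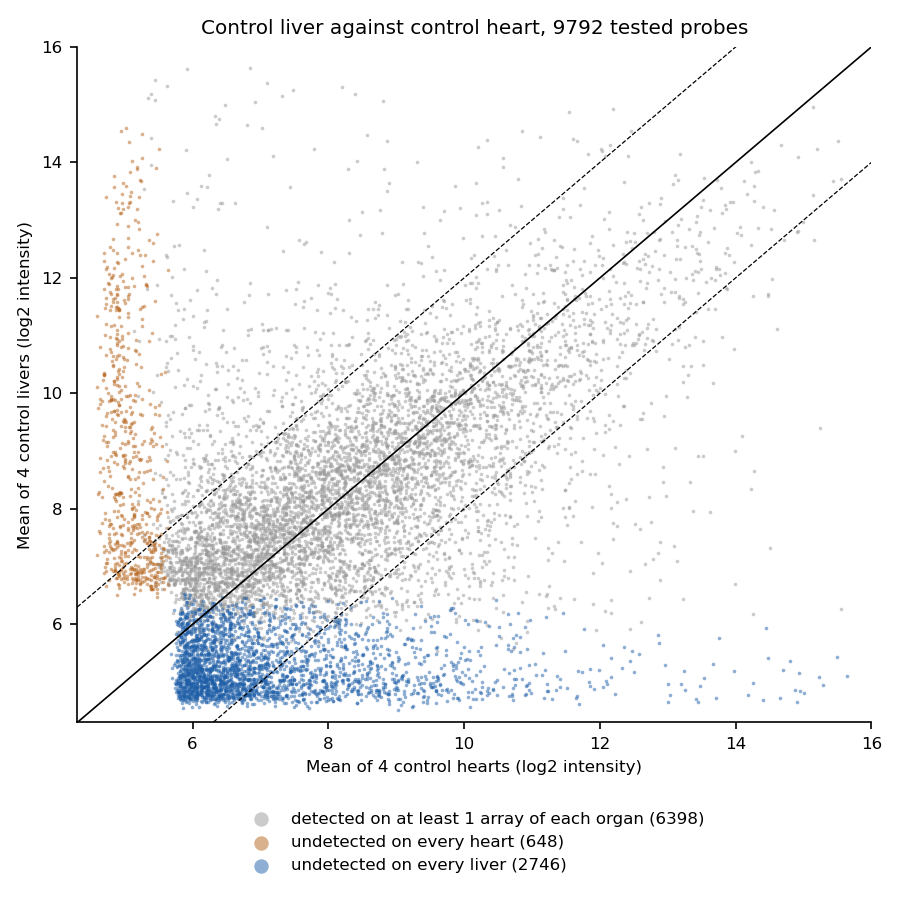
Mean log2 intensity of the 9792 tested probes in 4 control hearts (x) and 4 control livers (y); the solid line marks equal levels and the dashed lines 4-fold differences. The 648 probes undetected on every heart lie in a column at the left and the 2746 undetected on every liver in a band at the bottom.

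The arrays of the organs were not alike in background. Background intensity was 137.0 to 150.5 on the livers and 51.8 to 55.7 on the hearts, the livers detected 6388 to 6877 probes and the hearts 9022 to 9785, and the brightest probe reached 64897.8 to 69798.3 on the livers and 35039.5 to 40659.8 on the hearts. Organ and array background cannot be told apart in this design, and a dim transcript was more easily detected in heart. Arrays of an organ correlated at r = 0.948 to 0.988 (livers) and 0.987 to 0.992 (hearts) over the tested probes, a liver with a heart at 0.374 to 0.423, and the median SD between livers (0.22 on the log2 scale) was larger than that between hearts (0.12). Liver 3 stood apart: 255 probes lay more than 1 log2 unit below every other liver on it, against 10, 19 and 10 on livers 1, 2 and 4. Probes of 1 gene did not always give 1 answer: of 1075 genes with more than 1 tested probe, 211 (19.6%) had probes whose differences were 2 or more log2 units apart, and 121 had probes called in both directions. Levels below are log2 normalised intensities of a gene's brightest tested probe, in the order of replicates 1 to 4, and are compared between organs only at the same probe.

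The organs carried the markers of their labels. All 10 cardiomyocyte markers on the array stayed undetected on 3 or more livers, 9 of them on every liver, Ryr2 was detected on no array, and the summed intensity of the list was 369 to 404 on the livers and 215173 to 217128 on the hearts. Of 11 hepatocyte markers, 10 were detected on all 4 livers, with a summed intensity of 168889 to 204594. On the hearts 6 of the 11 were undetected on every array and 2 were detected on all 4, and the summed intensity was 633, 901, 694 and 1465 on hearts 1 to 4. The hepatocyte marker apolipoprotein A-II (Apoa2) was at 15.64, 15.64, 15.69 and 15.57 in the livers and at 5.45, 7.40, 5.66 and 8.84 in the hearts, detected on hearts 2 and 4 (at least 409.8-fold). Transthyretin (Ttr), a carrier of thyroid hormone and retinol-binding protein, was at 14.13, 14.15, 13.76 and 14.18 and 5.91, 6.77, 5.55 and 7.75. Both were higher in hearts 2 and 4 than in hearts 1 and 3. The part of liver RNA in the hearts' values was not tested.

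Markers of other cell types divided between the organs, beside 34.9% of all genes called higher in liver and 47.3% in heart. Of 9 tested markers of Kupffer cells and macrophages 5 were higher in liver and 4 did not pass, among them Adgre1 (-0.59) and Lyz2 (-0.56). Clec4f, a lectin of Kupffer cells, was at 9.63, 9.05, 10.41 and 10.47 in livers and undetected on every heart (at least 17.7-fold). Of 5 tested markers of liver sinusoidal endothelium 3 were higher in liver, Lyve1 was higher in heart (at least 4.03-fold) and Stab1 did not pass (-0.30). Stab2, a hyaluronan receptor of these cells, was at 10.39, 10.15, 10.83 and 10.46 in livers and undetected on every heart (at least 26.2-fold). Both tested stellate cell markers were higher in liver, Reln by 3.83 on the log2 scale and Lrat by at least 3.42-fold. In contrast, all 7 tested fibroblast markers were called higher in heart, but only 2 of them by at least 4-fold. Lumican (Lum) was at 10.85, 10.62, 10.53 and 10.98 in hearts and undetected on every liver (at least 17.2-fold). All 7 tested general endothelial markers were higher in heart, 1 of them by at least 4-fold, with Emcn the furthest apart among those detected on all 8 arrays (-3.41). Wt1, a factor of the mesothelium that covers the heart, was at 7.53, 7.18, 8.31 and 8.03 in hearts and undetected on every liver.

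Some arrays carried marker signals that others of the same organ lacked. The summed intensity of 11 neutrophil and precursor markers was 2766 and 1462 in livers 1 and 2 and 69091 and 40078 in livers 3 and 4, against 476 to 2027 in the hearts. Only 4 of the 11 passed the filter and were tested, of which 2 were higher in liver and 2 did not pass. Myeloperoxidase (Mpo), a granule enzyme, was at 5.44, 5.86, 13.07 and 10.69 in the livers and undetected on every heart. The Kupffer cell and macrophage sum was also higher in livers 3 and 4 (9865 and 9056) than in livers 1 and 2 (4708 and 3547). The T cell receptor genes Cd3e, Cd3d and Cd3g were detected on heart 2 alone, with Cd3g at 5.10, 8.996, 5.18 and 4.88 in the hearts. The thermogenic gene Ucp1 of brown fat was at 9.32, 10.81, 6.99 and 10.52 in the hearts and undetected on every liver, and the adipocyte hormone Adipoq at 7.12, 9.37, 8.98 and 8.04 in the hearts. Of 7 adipocyte markers on the array 3 were undetected on all 8 arrays. Of the 3 tested, 2 were higher in heart, against 47.3% of all genes, none by at least 4-fold, and 1 did not pass. Of 9 exocrine pancreas genes on the array, 5 were undetected on all 8 arrays and none was detected on a heart. Cela1, Cela2a and Ctrb1 were detected on all 4 livers, with Ctrb1 at 7.91, 8.997, 8.26 and 8.18. Erythroid genes were detected in both organs, with a sum of 13332 to 37362 in livers and 54117 to 62256 in hearts. The part of these cells in the differences below was not tested.

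**Figure D2:**
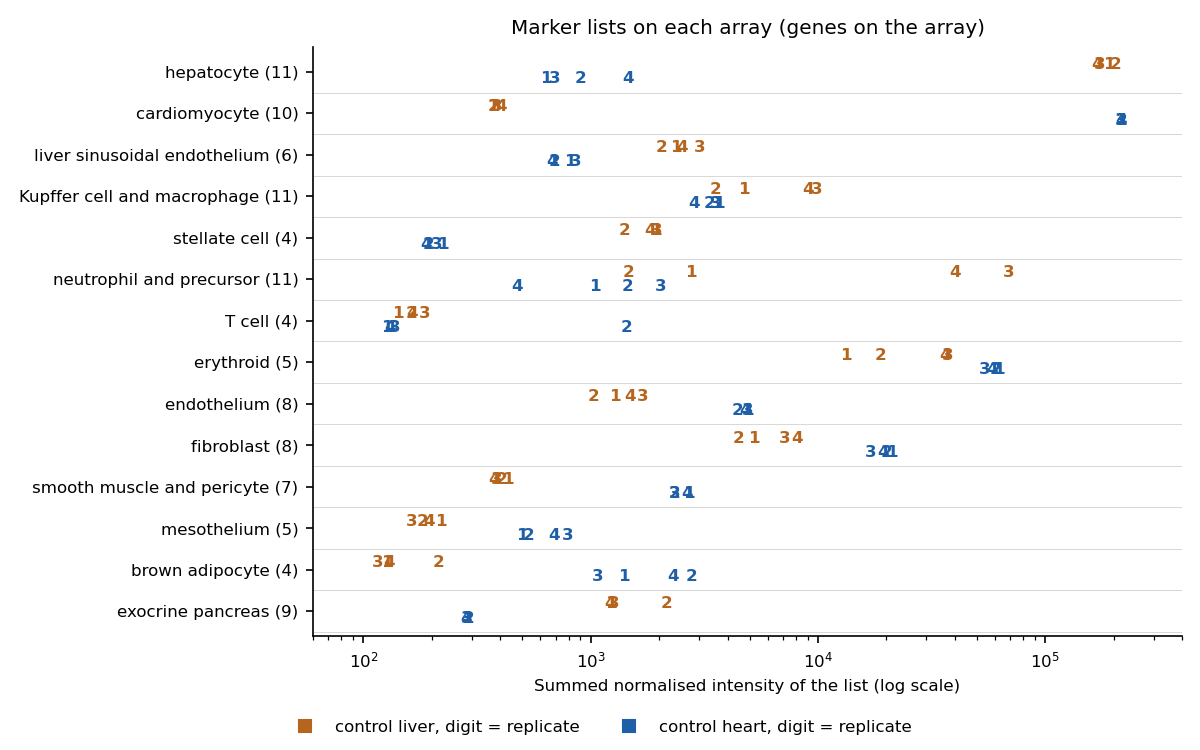
Summed normalised intensity (log scale) of 14 marker lists on each control liver (brown) and heart (blue), each digit being a replicate number; the number of genes on the array follows each name. The hepatocyte and cardiomyocyte sums lie more than 100-fold apart between the organs, and neutrophil markers in livers 3 and 4 and T cell markers in heart 2 lie away from the other arrays.

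Genes for secreted proteins were higher in liver in most cases. Of 27 tested plasma carriers and other secreted proteins, 25 were higher in liver and none in heart, all 25 of them by at least 4-fold (median difference 7.31 on the log2 scale, 6.69 with undetected levels at the bound), against 34.9% and 10.1% of all genes. Ambp, the precursor of alpha-1-microglobulin and bikunin, was at 15.22, 15.13, 15.13 and 15.26 in livers and 5.12, 5.22, 4.82 and 6.38 in hearts, detected on 1 heart, and was at least 629-fold higher in liver (limma, adjusted p = 1.3e-09). The haem scavenger Hpx was at 14.86, 14.62, 15.54 and 15.46 and 5.15, 5.12, 5.14 and 5.94, detected on 1 heart (at least 648-fold). Both groups lay far apart on every array, and heart 4 was the highest heart for each. The acute phase protein Crp was undetected on every heart and at least 459.8-fold higher in liver, Mug1, a proteinase inhibitor, at least 388-fold, and the hyaluronan-binding chains Itih1 and Itih3 at least 260.3-fold and 310.0-fold. Acute phase genes also varied among livers: orosomucoid 1 (Orm1) was at 13.70, 13.19, 15.03 and 15.03, higher in livers 3 and 4, where the neutrophil marker sum was also higher. Ceruloplasmin (Cp) did not pass the test, nor did hepcidin (Hamp), the hormone that limits iron uptake, whose probe was at 12.78, 13.42, 6.13 and 9.94 in livers and 10.23, 10.02, 10.26 and 9.997 in hearts. The hearts lay within the range of the livers, and liver 3, in which the probe was not detected, was the lowest array.

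All 20 coagulation and fibrinolysis genes tested were higher in liver, 19 of them by at least 4-fold, and 16 were undetected on every heart. Fga was at 15.26, 15.34, 15.39 and 15.34 in livers and 5.11, 5.70, 5.17 and 6.50 in hearts (at least 670.2-fold; limma, adjusted p = 9.21e-10). Kininogen 1 (Kng1), the source of bradykinin, was at 15.57, 15.57, 15.64 and 15.69 and 5.53, 6.05, 5.12 and 6.95 (at least 711-fold). Both were detected on hearts 2 and 4 only. Prothrombin (F2) was at least 231-fold higher in liver, the plasmin inhibitor Serpinf2 at least 201-fold and protein C (Proc) at least 176-fold, each undetected on every heart.

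Of 21 tested complement genes 17 were higher in liver, 16 by at least 4-fold, and none in heart. Factor I (Cfi), which cleaves C3b, was at 13.16, 13.20, 13.69 and 13.58 in livers and undetected on every heart (at least 203-fold), and the terminal components Hc (C5), C8a and C9 had bounds of 85.9, 53.9 and 57.6-fold. Liver 3 was lowest for C8a (11.80, 11.78, 10.45 and 11.96). The 4 genes that did not pass were C1qa, C1qb, C1qc and Cd55. C1q is known as a macrophage product, and C1qb was at 8.69, 8.14, 9.70 and 9.59 in livers and 9.22, 9.02, 9.07 and 8.55 in hearts, so that the ranges overlapped.

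Of 17 tested genes of apolipoproteins and lipoprotein assembly, 14 were higher in liver and 3 in heart, all 17 by at least 4-fold. Apoc3, an inhibitor of lipoprotein lipase, was at 14.56, 14.88, 14.47 and 14.32 in livers and 4.69, 4.98, 4.68 and 5.44 in hearts, undetected on every heart and at least 449-fold higher in liver. Apof, Apom and Apoc4 followed, and Apoa1, the main protein of HDL, was detected on all 8 arrays at 15.39, 15.46, 15.26 and 15.13 and 7.93, 8.13, 8.15 and 8.58 (7.11). The genes higher in heart included those of uptake: lipoprotein lipase (Lpl), which frees fatty acids from circulating triglyceride, was at 8.14, 8.59, 7.67 and 7.42 in livers and 13.64, 13.65, 13.52 and 13.69 in hearts (-5.67 ± 0.22; limma, adjusted p = 9.24e-09), and the fatty acid translocase Cd36 was undetected on every liver (at least 9.12-fold).

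Of 59 genes of the plasma carrier, coagulation and apolipoprotein lists called higher in liver, hearts 1 to 4 detected 16, 21, 15 and 24. For 22 of the 59 (37.3%) hearts 2 and 4 both lay above hearts 1 and 3, against 13.4% of all tested probes, and 8 were detected on heart 2 or 4 and on neither of the others. This grouping of the hearts was chosen after seeing values of genes among the 59, so the share only describes them and tests nothing. Without hearts 2 and 4 the counts of large differences in the plasma carrier, coagulation, complement and apolipoprotein lists were 25, 18, 16 and 14. With them the counts were 25, 19, 16 and 14.

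Enzymes of the hepatocyte were higher in liver list by list. Of 30 tested cytochromes P450 and their partners, 29 were higher in liver, 25 by at least 4-fold, and Cyp4b1 did not pass (median 5.69, 5.07 at the bound). Cyp2c70, which hydroxylates bile acids in mice, was at 13.64, 13.81, 13.17 and 13.70 in livers and undetected on every heart (at least 228-fold). Cyp4a10, an omega-hydroxylase of fatty acids known as a target of PPAR alpha, was at 13.10, 13.68, 14.62 and 14.43 and 5.42, 5.07, 4.94 and 6.14 (detected on 1 heart, at least 279-fold). Livers differed most for Cyp2d9, known as male-enriched in mouse liver, at 14.11, 14.65, 11.98 and 13.24, lowest in liver 3. Of 25 tested conjugating enzymes 21 were higher in liver, 16 by at least 4-fold, among them Ugt3a2 (at least 94.4-fold), Gnmt (at least 57.4-fold) and Sult1d1 (at least 30.1-fold). The glutathione transferases Gstm5 (-2.51) and Gstm2 (-1.11) were higher in heart.

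All 18 tested genes of bile acid synthesis and transport were at least 4-fold higher in liver. The rate-limiting enzyme Cyp7a1 was at 11.72, 11.93, 12.31 and 11.71 in livers and at 4.70, 4.71, 4.92 and 4.67 in hearts, undetected on every heart (at least 72.2-fold; limma, adjusted p = 1.19e-10). Cyp8b1, which sets the share of cholic acid, was at least 123-fold higher, and Slc27a2 and Slc27a5, which activate very long chain fatty acids and bile acids, at least 208-fold and 191-fold. Of 29 tested genes of the urea cycle and amino acid breakdown, 25 were higher in liver, 22 by at least 4-fold. Mat1a, the liver enzyme of S-adenosylmethionine synthesis, was at 15.03, 15.10, 15.15 and 15.07 in livers and 5.18, 5.62, 4.82 and 6.15 in hearts (detected on 2 of them, at least 609.5-fold). Arg1, which releases urea, had a bound of 146-fold, and Ass1 was detected on all 8 arrays, at 14.79, 14.61, 14.50 and 14.45 and 7.28, 6.97, 6.79 and 7.03 (7.57 ± 0.12; limma, adjusted p = 2.66e-11). Pccb (-1.27) and Got1 (-1.19), a subunit of propionyl-CoA carboxylase and the cytosolic aspartate transaminase, were higher in heart.

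In the fasted state of these mice, glucose-producing genes were measured in liver. G6pc, whose product frees glucose for export, was at 12.60, 11.07, 12.56 and 13.33 in livers and at 5.61, 5.62, 5.36 and 5.84 in hearts (detected on 2 of them, at least 99.4-fold; limma, adjusted p = 1.76e-07), lowest in liver 2. Fbp1 was at 12.20, 12.08, 12.65 and 12.63 in livers and undetected on every heart (at least 100.2-fold). Of the 15 tested genes of this list 14 were higher in liver, 10 by at least 4-fold, and Ppp1r3c, which targets phosphatase to glycogen, was higher in heart (-2.84). Of 12 tested cholesterol synthesis genes 11 were higher in liver, 9 by at least 4-fold, with Msmo1 at 10.56, 10.02, 10.17 and 10.72 in livers and 6.62, 6.13, 6.24 and 6.43 in hearts (4.01). That count was 5 in the OPP arrays. Of 16 tested fatty acid synthesis genes 12 were higher in liver and 3 in heart, and the desaturases Fads2 (at least 30.1-fold) and Fads1 (3.73) led. Fatty acid synthase (Fasn) did not pass the test, and malic enzyme Me1 was higher in heart (-1.85).

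The 2 sites of fatty acid oxidation went in different directions for most of their listed genes. Of 14 tested peroxisomal genes 11 were higher in liver, 9 by at least 4-fold, among them Acaa1a, a thiolase, at 13.69, 13.56, 13.98 and 13.67 in livers and 10.77, 10.75, 10.82 and 10.81 in hearts (2.94). Hao1, a peroxisomal oxidase of glycolate, was undetected on every heart (at least 25.7-fold). Of the 14 peroxisomal genes 2 were higher in heart, with Eci2 the furthest apart (at least 4.38-fold). Of 20 tested mitochondrial genes 17 were higher in heart, 6 by at least 4-fold, and Acads alone was higher in liver (0.62). Cpt1b, the muscle gate of fatty acid entry into mitochondria, was at 5.77, 5.61, 6.03 and 6.75 in livers and 12.62, 12.66, 12.60 and 12.53 in hearts (detected on 1 liver, at least 61.2-fold). Hadhb, of the trifunctional protein, was at 11.46, 11.83, 11.35 and 12.12 and 14.51, 14.61, 14.36 and 14.43 (-2.79).

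**Figure D3:**
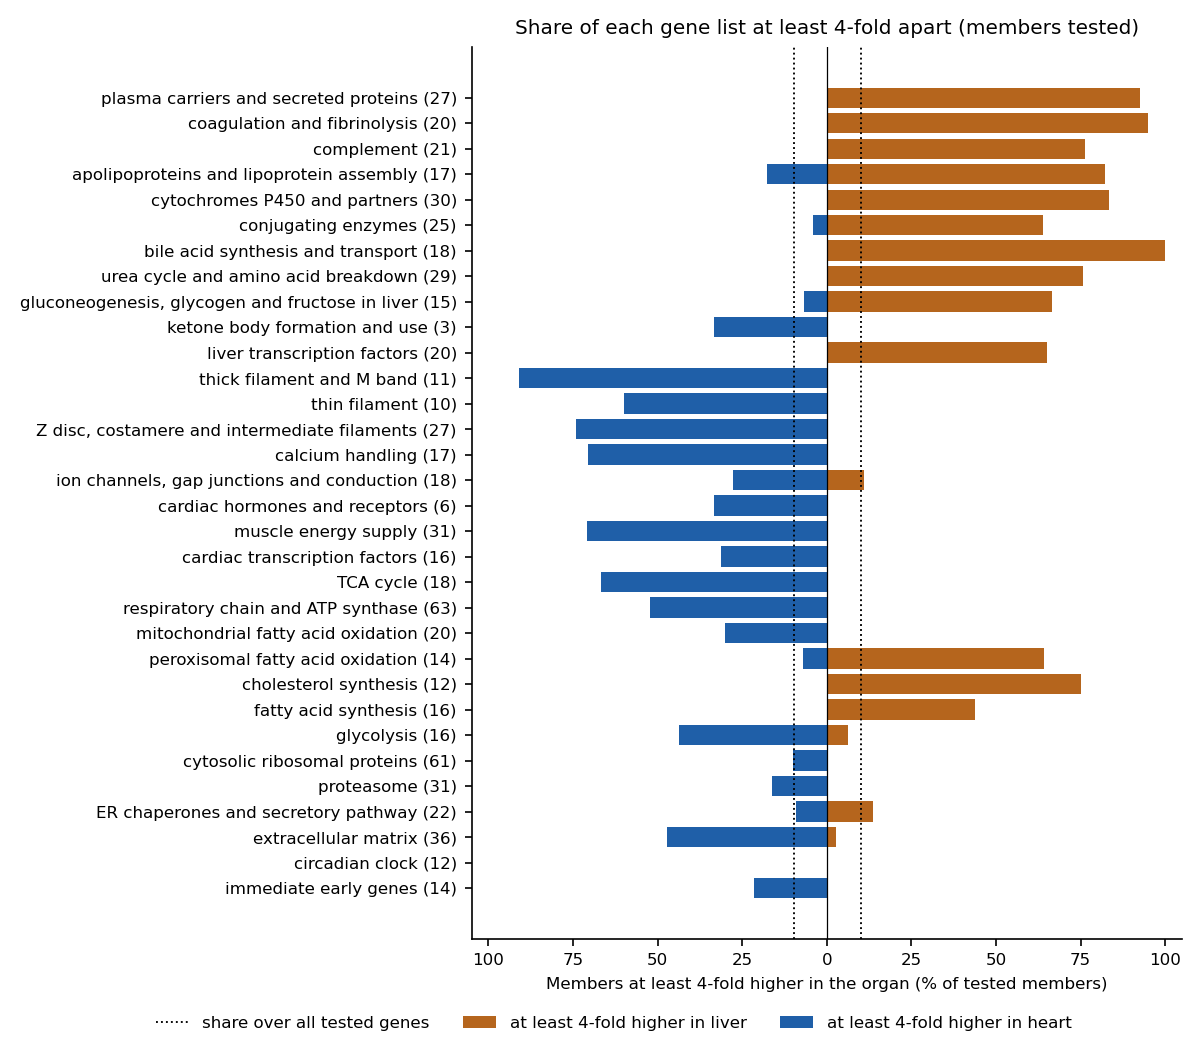
Share of the tested members of each gene list that were at least 4-fold higher in liver (brown, to the right) or in heart (blue, to the left), with the number tested after each name; dotted lines mark the shares over all 7077 tested genes, 10.1% and 9.58%. All 18 tested bile acid genes reached 4-fold in liver and 10 of 11 thick filament genes in heart, and no clock gene did in either.

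Liver transcription factors were higher in liver in 18 of 20 cases, 13 by at least 4-fold. Hnf4a, a nuclear receptor central to hepatocyte identity, was at 12.11, 12.43, 12.24 and 12.42 in livers and 5.34, 5.32, 5.41 and 5.604 in hearts, undetected on every heart (at least 94.1-fold; limma, adjusted p = 2.64e-11). The bile acid receptor Nr1h4 (FXR) had a bound of 77.99-fold, the forkhead factor Foxa3 of 68.99-fold, Creb3l3 (CREB-H) of 66.5-fold and the xenobiotic receptors Nr1i3 (CAR) and Nr1i2 (PXR) of 51.9 and 14.9-fold. Foxa1 and Foxa2 lay nearer to the floor, with bounds of 3.13 and 3.20-fold. Onecut2, Cebpa and Nr5a2 had bounds of 13.98, 13.2 and 9.17-fold and Rxra of 3.94-fold. Ppara, the fasting receptor for fatty acids, was detected on all 8 arrays at 9.37, 8.96, 9.47 and 9.66 in livers and 6.05, 5.89, 6.06 and 6.34 in hearts (3.28). Cebpb (2.64), Nr1h3 (2.33), Mlxipl (2.12), Xbp1 (1.36) and Prox1 (1.08) were also higher in liver. The exceptions were Esrra, a regulator of mitochondrial genes, at 8.20, 7.91, 7.99 and 7.91 in livers and 9.40, 9.45, 9.30 and 9.23 in hearts (-1.34), and Zhx2, detected on all 4 hearts and no liver (at least 1.07-fold).

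Cardiac transcription factors lay nearer to the detection floor. Of 16 tested, 15 were higher in heart, but only 5 by at least 4-fold: the SRF coactivator Myocd (at least 5.37-fold), Mef2c (at least 8.91-fold), Gata4 (at least 5.15-fold), Irx3 (at least 4.29-fold) and Srf. Srf itself was detected on all 8 arrays, at 7.45, 7.94, 8.24 and 7.80 in livers and 10.72, 10.64, 10.74 and 10.64 in hearts (-2.83 ± 0.15; limma, adjusted p = 8.77e-08). Nkx2-5, a homeobox factor of the heart, was at 6.01, 5.26, 6.24 and 5.90 and 8.17, 7.75, 7.63 and 8.19, undetected on every liver, and its bound was 2.46-fold. Tbx20, Hey1, Irx5, Meis1, Meis2 and Smyd1 were likewise undetected on every liver, with bounds of 2.22, 3.29, 2.97, 3.76, 3.20 and 1.75-fold. Irx4 and Hand2 were detected on all 4 hearts and on no liver, at levels that the liver arrays could not have resolved. Gata6 was present in both organs (-1.88), and Tbx3 did not pass the test (8.94, 8.01, 8.79 and 8.75 against 8.43, 8.10, 9.02 and 8.20).

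**Figure D4:**
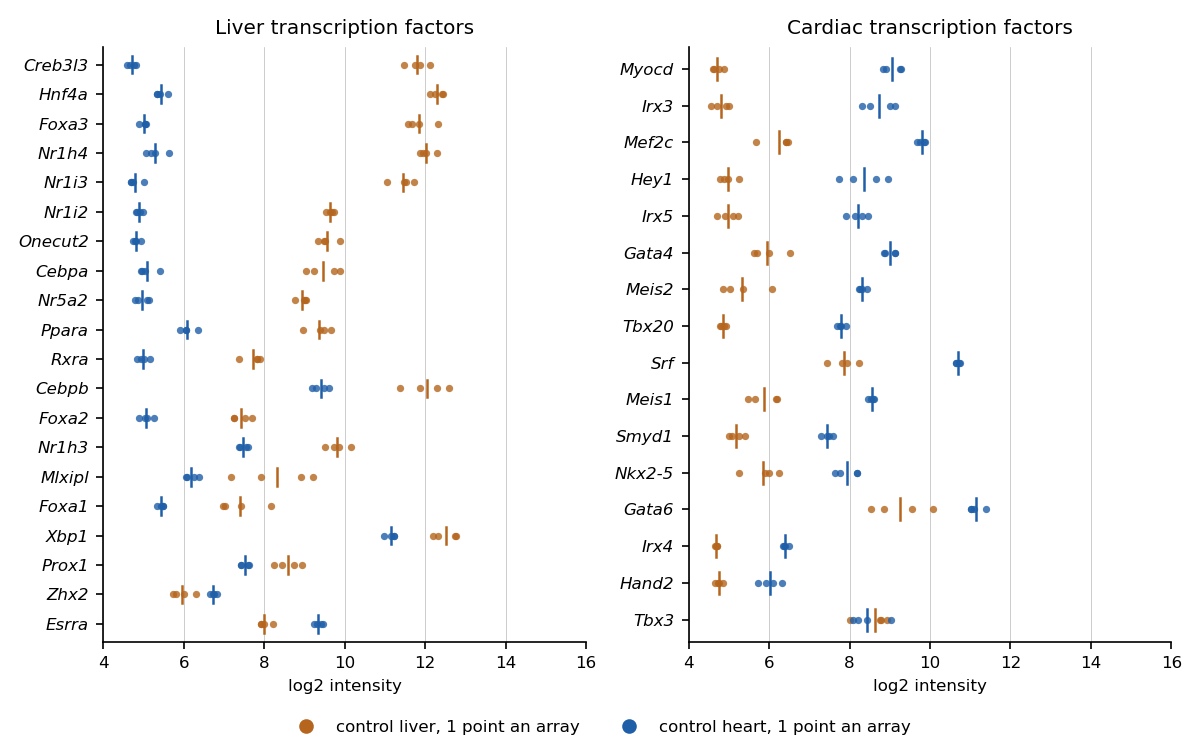
Log2 intensity of every tested liver (left) and cardiac (right) transcription factor on 4 control livers (brown) and 4 control hearts (blue), with a vertical bar at each mean. The organs did not overlap for any of the 20 liver factors, and Tbx3 was the only one of 16 cardiac factors whose ranges overlapped, while 78.5% of all 7077 genes did not overlap.

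Genes of the sarcomere, the contractile unit, were detected almost only in heart. All 11 tested thick filament and M band genes and all 10 thin filament genes were higher in heart, 10 and 6 of them by at least 4-fold (medians -8.26 and -4.59, or -6.39 and -3.83 with undetected levels at the bound), against 47.3% and 9.58% of all genes. Of these 21 genes 16 were undetected on every liver. Regulatory light chain Myl2 was at 5.15, 5.17, 4.98 and 5.02 in livers and 15.18, 15.26, 15.22 and 15.26 in hearts, undetected on every liver and at least 386-fold higher in heart (limma, adjusted p = 1.15e-12). Essential light chain Myl3 had a bound of 261-fold and alpha-myosin heavy chain Myh6, the main heavy chain of the adult mouse heart, one of 134-fold. The atrial light chain Myl7 was at 13.57, 13.35, 13.67 and 13.58 in hearts. Of the thin filament, Tnnc1 was at 5.18, 5.25, 5.11 and 6.21 and 15.57, 15.46, 15.39 and 15.54 (at least 463-fold), Tnnt2 had a bound of 287-fold and Acta1 one of 318-fold. Cardiac actin Actc1 was at 6.02, 6.40, 5.998 and 6.63 in livers, detected on 1 of them, and 15.54, 15.69, 15.57 and 15.39 in hearts (at least 481-fold).

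Of 27 tested genes of the Z disc, costamere and intermediate filaments, 26 were higher in heart, 20 by at least 4-fold, and Sgcd did not pass. The titin cap Tcap was at 4.64, 4.62, 4.74 and 4.61 in livers and 14.98, 14.98, 14.72 and 14.90 in hearts (at least 306-fold), alpha-actinin 2 (Actn2) had a bound of 217-fold and the stretch-responsive gene Ankrd1 one of 196-fold. The small heat shock protein Cryab, which protects desmin, was detected on all 8 arrays, at 7.45, 7.40, 7.15 and 7.29 and 14.56, 14.69, 14.32 and 14.45 (-7.18 ± 0.10; limma, adjusted p = 1.63e-11). All 17 tested calcium handling genes were higher in heart, 12 by at least 4-fold. Phospholamban (Pln) had a bound of 313-fold and calsequestrin (Casq2) one of 36.9-fold. The pump that phospholamban inhibits, Atp2a2, is made in most tissues and was at 8.99, 9.15, 9.73 and 9.74 in livers and 15.39, 15.13, 15.34 and 15.15 in hearts (-5.85).

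Different connexins led in each organ. Gja1 (connexin 43) was at 8.45, 8.65, 9.31 and 9.27 in livers and 13.52, 13.32, 13.33 and 13.57 in hearts (-4.52), while Gjb1 (connexin 32) was at 10.82, 10.90, 10.31 and 10.48 in livers and undetected on every heart (at least 29.5-fold) and Gjb2 (connexin 26) had a bound of 18.8-fold. Of 18 tested genes of channels, junctions and conduction, 16 were higher in heart, 5 by at least 4-fold, and these 2 liver connexins were the only ones higher in liver. Popdc2 and Bves, cAMP-binding proteins of the sarcolemma, had bounds of 43.8 and 10.7-fold. The potassium channel gene Kcnq1, at 9.53, 9.25, 9.72 and 9.77 in hearts, had a bound of 7.61-fold. Of 6 tested genes of cardiac hormones and receptors, 4 were higher in heart, 2 of them by at least 4-fold, against 47.3% and 9.58% of all genes. Of the others 1 was higher in liver and 1 did not pass. Natriuretic peptide B (Nppb) was at 4.64, 4.80, 4.76 and 4.64 in livers and 13.29, 13.38, 13.50 and 13.49 in hearts (at least 109.7-fold), and its processing protease Corin had a bound of 42.7-fold. The angiotensin receptor Agtr1a was higher in liver (1.28).

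Energy genes of muscle were higher in heart in 29 of 31 cases, 22 by at least 4-fold. Myoglobin (Mb) was at 4.71, 4.96, 4.76 and 4.82 in livers and 15.03, 15.07, 14.86 and 15.07 in hearts (at least 330.5-fold; limma, adjusted p = 1.15e-12), the fatty acid binding protein Fabp3 had a bound of 303-fold and the mitochondrial creatine kinase Ckmt2 one of 188-fold. Oxct1, which lets tissues other than liver use ketone bodies, was at 4.91, 4.98, 5.59 and 5.25 in livers and 12.60, 12.60, 12.22 and 12.62 in hearts (at least 58.6-fold). Bdh1, which interconverts the ketone bodies, was higher in liver (1.305) and Acat1 did not pass (0.39).

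The enzymes of the mitochondrion common to both organs were also higher in heart. Of 18 tested TCA cycle genes 17 were higher in heart, 12 by at least 4-fold. Citrate synthase (Cs) was at 9.79, 9.97, 9.24 and 9.39 in livers and 13.05, 12.82, 12.93 and 12.999 in hearts (-3.36 ± 0.16; limma, adjusted p = 3.2e-08). Ogdh (-3.07) and Pdha1 (-3.01), of the oxoglutarate and pyruvate dehydrogenase complexes, differed by a like amount. Idh3b alone was higher in liver (1.43), while Idh3a (-2.88) and Idh3g (-2.33), the other subunits of the same enzyme, were higher in heart. Liver 3 was low for several genes of the cycle: Mdh2 was at 6.56, 7.41, 4.98 and 7.82 in livers and 13.90, 13.90, 14.02 and 14.13 in hearts (undetected in 2 livers, at least 114-fold), and Idh2 at 8.96, 9.13, 7.13 and 9.40 and 14.38, 14.13, 14.27 and 14.30 (-5.61). Without liver 3 the difference of Idh2 was -5.09, and the counts of the list stayed at 17 and 12.

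Of 63 tested genes of the respiratory chain and ATP synthase, 61 were higher in heart, 33 by at least 4-fold (median -2.06), and without liver 3 these counts were 61 and 30. Atp5a1, the alpha subunit of ATP synthase, was at 8.53, 8.77, 6.97 and 9.09 in livers and 14.19, 14.08, 14.29 and 14.32 in hearts (-5.88). Liver 3 was more than 1 log2 unit below every other liver for 6 of the 63 genes and 4 of the 18 TCA cycle genes, against 181 of the 7077 tested genes (2.56%). Of the 63 genes, those at least 4-fold higher in heart numbered 28 with array weights, 26 without livers 3 and 4 and 28 in the OPP arrays. The count called higher in heart stayed at 61 in these runs. The part of liver 3 in these values was not tested beyond such runs. Differences also depended on the probe: the 2 tested probes of Ndufa5 gave -2.61 and -7.04 and those of Dld -1.02 and -6.05.

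Paired forms of 1 enzyme or carrier were compared between the organs, form by form. Of 26 pairs fixed by a hand-written list, 15 had both forms tested. The liver forms Fabp1, Cpt1a and Gys2 were on the array but undetected on every liver and heart, and so were not tested. Fabp1 was at 5.86, 6.20, 5.06 and 5.63 in livers. A probe undetected on every array of an organ does not show that its transcript was absent. In 9 the liver form was higher in liver and the muscle form in heart, in 4 both were higher in heart, in 1 (Pfkl and Pfkm) only the muscle form passed, in the PGC-1 pair only Ppargc1b did, and none ran the other way. The 9 include Ldha and Ldhb, and Ldha had a small difference whose call was lost under some alternatives. The connexins Gjb1 and Gja1, given above, were another of the 9, as were the fatty acid carriers Slc27a2 in liver (at least 208-fold) and Slc27a1 in heart (at least 8.51-fold). Of all tested forms, 21 of 22 muscle forms were higher in heart and 10 of 16 liver forms in liver, against 47.3% and 34.9% of all genes. The pairs of acyl-CoA dehydrogenases and PGC-1 coactivators are relatives rather than organ forms.

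Among the glycolytic and gluconeogenic pairs, pyruvate kinase L (Pklr) was at 9.20, 9.15, 7.18 and 7.55 in livers and undetected on every heart (at least 5.76-fold), while Pkm was at 7.46, 7.06, 9.80 and 8.45 in livers and 12.89, 12.65, 12.58 and 12.78 in hearts (-4.53 ± 0.50; limma, adjusted p = 1.81e-05). Livers 3 and 4 were low for Pklr and high for Pkm. Fbp1, given above, stood against Fbp2, at 9.95, 9.91, 10.03 and 9.35 in hearts and undetected on every liver (at least 9.01-fold). The glycogen phosphorylases divided in the same way, with Pygl at 10.69, 10.92, 10.04 and 10.07 in livers and 7.503, 7.81, 8.02 and 8.03 in hearts (2.59) and Pygm undetected on every liver (at least 8.26-fold). The glucose transporters were Slc2a2 in liver (at least 4.92-fold) and the insulin-responsive Slc2a4 in heart (at least 12.6-fold). Pfkl did not pass the test (10.85, 10.58, 11.35 and 11.07 against 10.99, 10.86, 10.95 and 10.80), and Pfkm was higher in heart (-4.61).

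The subunits of lactate dehydrogenase differed in size of change. Ldhb, the heart subunit, was at 5.33, 5.32, 5.18 and 5.41 in livers and 13.75, 13.67, 13.59 and 13.61 in hearts (at least 129.7-fold), while Ldha was detected on all 8 arrays at 12.94, 12.89, 13.91 and 13.46 and 12.79, 12.63, 12.67 and 12.79, a difference of 0.58 ± 0.21 (limma, adjusted p = 0.0258) that no longer passed the test without heart 2, heart 3 or liver 4. Cytochrome c oxidase gave a similar picture: Cox6a1 was at 12.41, 12.39, 11.98 and 12.10 in livers and 11.38, 11.60, 11.46 and 11.61 in hearts (0.70), and Cox6a2 at 4.92, 4.96, 4.93 and 4.98 and 15.26, 15.34, 15.46 and 15.10 (at least 402-fold). The common forms Cox7a2 (-1.72) and Cox8a (-0.88) were higher in heart, with the muscle forms Cox7a1 (at least 224-fold) and Cox8b (at least 267-fold) undetected on every liver. Phosphoglycerate mutase was higher in heart in both forms, with bounds of 2.74-fold for Pgam1 and 111-fold for Pgam2. Of the glycolysis list as a whole 13 of 16 tested genes were higher in heart, 7 by at least 4-fold, and Gapdh, often used as a reference gene, was at 13.72, 13.78, 13.72 and 13.52 in livers and 15.22, 15.39, 15.64 and 15.46 in hearts (-1.74).

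**Figure D5:**
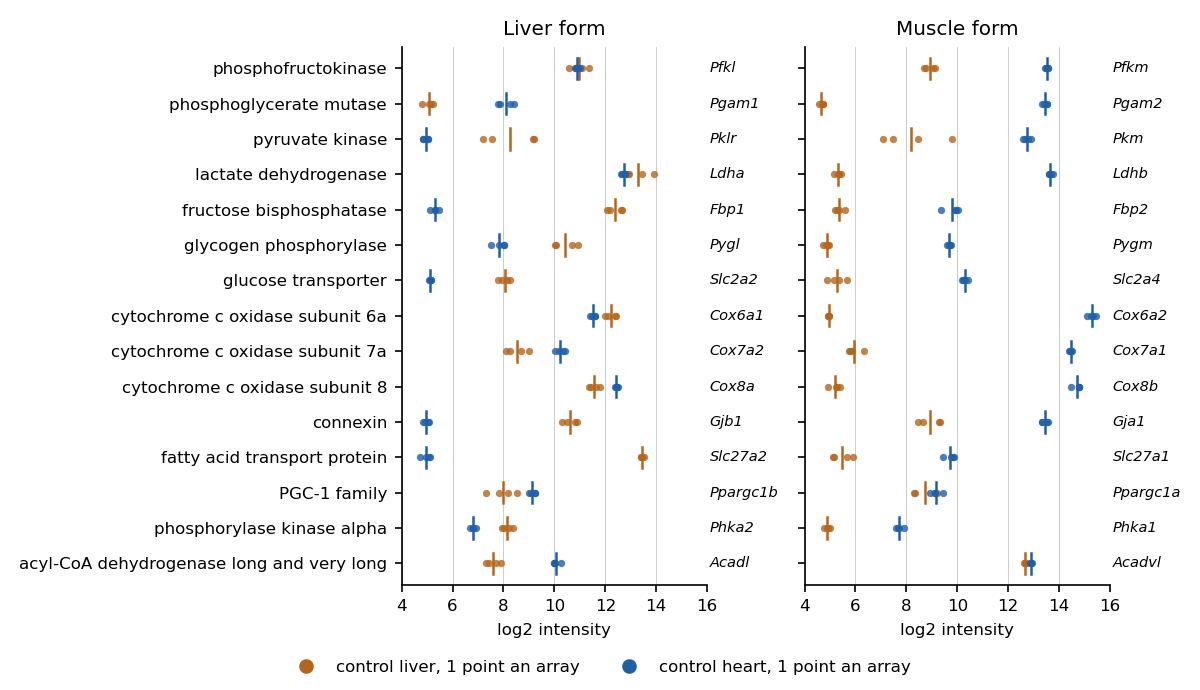
Log2 intensity of the liver form (left) and the muscle form (right) of 15 pairs on 4 control livers (brown) and 4 control hearts (blue), with a vertical bar at each mean; panels share their rows but levels are not comparable between genes. The muscle form was called higher in heart in 14 of the 15 pairs and the liver form higher in liver in 9.

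Lists of general function held fewer large differences. Of 61 tested cytosolic ribosomal protein genes 55 were higher in heart and 3 in liver, against 47.3% and 34.9% of all genes, though only 6 by at least 4-fold (9.84%, near the 9.58% of all genes; median -0.80). Rps6 was at 6.85, 7.32, 6.84 and 7.24 in livers and 12.001, 12.07, 12.03 and 12.03 in hearts (-4.97), while Rpl3 was higher in liver (0.96). Of 31 proteasome genes 20 were higher in heart and 4 in liver, 5 and 0 by at least 4-fold. Secretory pathway genes were mixed, with 12 of 22 higher in liver and 6 in heart: protein disulphide isomerase P4hb was at 13.22, 13.15, 13.29 and 13.29 in livers and 10.83, 10.77, 10.82 and 10.94 in hearts (2.40), whereas the probe of the chaperone Hspa5 was at 11.19, 11.10, 11.19 and 11.35 in hearts and undetected on every liver (at least 23.7-fold).

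Extracellular matrix genes were higher in heart in 34 of 36 cases, 17 by at least 4-fold. Mgp, an inhibitor of calcification, had a bound of 46.4-fold, Col3a1 was at 10.63, 10.22, 10.92 and 11.20 in hearts and undetected on every liver (at least 17.2-fold), and Sparc had a bound of 23.1-fold. Col18a1, the source of endostatin, went the other way, at 13.15, 12.91, 13.08 and 12.87 in livers and 8.36, 8.15, 8.11 and 8.62 in hearts (4.70 ± 0.12; limma, adjusted p = 6.86e-10). No clock gene was 4-fold apart: Per2 (1.01) and Rora (1.64) were higher in liver and Nr1d2 (at least 2.15-fold) and Clock (-0.55) in heart. Of 12 tested, 4 were higher in liver and 3 in heart, against 34.9% and 47.3% of all genes, and 5 did not pass. Of 14 immediate early genes 10 were higher in heart, 3 by at least 4-fold, against 47.3% and 9.58% of all genes. They included Klf4 at 9.13, 8.75, 10.13 and 9.88 in hearts (at least 7.13-fold) and Egr1 (-1.33). Ier3, also among them, was at 5.25, 5.38, 8.15 and 7.93 in livers and 9.58, 9.29, 10.12 and 9.91 in hearts (at least 5.31-fold). Junb (1.38) and Jund (0.49) were higher in liver, with overlapping ranges for Jund. Ier3 was undetected in livers 1 and 2.

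Detection calls compare the organs with no scaling between arrays. On all 4 livers and no heart, 521 of 23982 probes were detected (2.17%), and on all 4 hearts and no liver 2481 (10.3%). Of the liver-only probes 425 were detected on none of the 4 control spleens and 46 on all 4. Of the heart-only probes 885 were detected on no spleen and 1243 on all 4, and the lower background of the hearts moves with this count. The part of background in it was not tested.

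The OPP-treated mice gave the comparison in other animals. Of 1825 probes at least 4-fold apart in controls, 1810 were tested in 3 OPP livers against 4 OPP hearts, and 1809 were called there in the same direction and 0 in the opposite one (limma, adjusted p below 0.05), against 78.5% of 9607 probes called in either direction.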

How the data were processed

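Total RNA of male BALB/c mouse organs was hybridised to Illumina MouseRef-8 Version 1 BeadChips, and BeadStudio (1.5.1.3) gave signals and detection calls, per the labels. The non-normalised table deposited by the authors holds linear intensity values and a detection p-value per probe and array. The authors' second table holds values after rank-invariant normalisation and was used only as an alternative. The intensities of the 8 control arrays were background corrected from the detection p-values (nec, offset 16), quantile normalised together and log2 transformed. Of 24048 probes, 66 without heart values were left out and 19398 carried 1 gene symbol. Of the promoter table the first listed start of each gene was taken. Organs were compared with limma (3.58.1, R 4.3.3; lmFit, eBayes with trend) with Benjamini-Hochberg adjustment over all 9792 tested probes, and the script was tested on simulated data. Samples were grouped by their titles. The labels do not name the mouse behind each sample, so p-values measure the spread between these samples, which may be partly technical, and the number of arrays limits the precision.

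Where a probe was undetected on every array of an organ, that organ's level was set on each array to the lowest signal of a detected probe or the probe's own, whichever was higher. Genes detected on only some arrays of an organ were given a lower bound in the same way, a choice made after the values were seen. Each gene was read at its brightest tested probe. Named genes were the 5 with the largest called differences of each list and up to 2 in the other direction, all paired forms and transcription factors, and the 10 largest differences each way. Genes named outside this rule were chosen after their values were seen. The gene lists, the markers and the tests were chosen with earlier results of these data known. Alternatives were other normalisations, backgrounds, offsets, filters and variance models, the methods' t-test, a replicate block, the OPP-treated mice, and leaving out arrays. The numbers were not taken as pairs because the labels do not name the mouse. Deviations of same-numbered livers and hearts correlated at r = 0.09, -0.07, 0.08 and -0.10 over probes. Differently numbered arrays gave -0.15 to 0.16, so these values cannot show whether a liver and a heart shared a mouse. Authors' fold changes were not used.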

Additional observations from a re-analysis of the deposited data

Results flagged for a closer look

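Of 431 groups of 4 arrays examined among the named genes, 27 held 1 array whose gap to the nearest other exceeded Dixon's critical value, and chance alone flags about 1 in 20 groups. All values are log2 normalised intensities.

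Among the livers, liver 3 was flagged in 6 genes. It was low for C8a (10.45, others 11.78 to 11.96), Gstm5 (7.49, others 8.01 to 8.11), Rxra (7.38, others 7.81 to 7.90) and Ttr (13.76, others 14.13 to 14.18), and high for Apoc4 (13.77, others 13.45 to 13.48) and Lrat (8.11, others 7.24 to 7.39). Liver 4 was high for the macrophage receptor Adgre1 (9.11, others 7.43 to 7.71) and low for Acads (8.88, others 9.27 to 9.34), Ahsg (14.51, others 14.88 to 14.92), Gstm2 (10.84, others 11.39 to 11.49) and Rpl11 (13.09, others 13.26 to 13.28). Liver 2 was low for Nr5a2 (8.75, others 8.98 to 9.03). Liver 1 was high for the clock genes Per2 (10.18, others 9.84 to 9.89) and Tef (12.48, others 11.98 to 12.05).

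Among the hearts, heart 3 was flagged in 7 genes. It was high for the red cell genes Hbb-b2 (13.91, others 13.08 to 13.12) and Slc4a1 (8.72, others 6.41 to 6.49) and for Acadl (10.25, others 9.98 to 10.02). It was low for Fads1 (9.73, others 9.89 to 9.91), Mb (14.86, others 15.03 to 15.07), Oxct1 (12.22, others 12.60 to 12.62) and Tie1 (6.43, others 6.51 to 6.52). Heart 4 was high for Hpx (5.94, others 5.12 to 5.15), Mdh1 (11.72, others 11.49 to 11.50) and Sdhd (12.98, others 12.91 to 12.92), and low for Cox8b (14.47, others 14.76 to 14.79) and Lyz2 (10.25, others 10.45 to 10.47). Heart 2 was high for Scd2 (9.94, others 9.49 to 9.54).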

How the results depend on the processing

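No called difference among the named genes and pairs was reversed under an alternative run, while 9 that were not called changed sign under at least 1, Pfkl (0.06) among them (-0.07 without liver 3, -0.18 without livers 3 and 4, -0.04 with array weights and -0.21 in the OPP-treated mice). With no filter on dim probes 6751 probes were called higher in liver and 6148 in heart, in place of 3401 and 4646, so that the balance turned to liver. The balance of differences of at least 4-fold, 949 in liver and 876 in heart, turned to heart with median scaling (901 and 1005) and with the authors' normalised values (1068 and 1154). The count called higher in liver was between 3208 and 3330 with 1 array left out. Probes at least 4-fold higher in heart numbered 876, but 542 with no background correction and 1432 with fitted differences in place of bounds, the latter chosen after seeing the data. Bounds hold only for the background correction and offset used. For Fbp1, with a bound of 6.65 on the log2 scale, the fitted difference was 6.20 with an offset of 50. It was 5.40 with no background correction and above the bound in every other run. With no background correction the counts at least 4-fold higher in heart were 2 for cardiac transcription factors, 2 for the proteasome and 11 for extracellular matrix. The authors' normalised values gave 8 for cardiac transcription factors, an offset of 50 gave 3 for the proteasome, and the OPP-treated mice gave 5 cholesterol genes at least 4-fold higher in liver. Ldha lost its call with the authors' normalised values (0.55), with the methods' t-test (0.58) and without hearts 2 and 4 (0.57), an alternative added after seeing the data, and ranged from 0.37 to 0.73 with 1 array left out. Ppargc1a gained a call in 5 runs, among them array weights (-0.62), without livers 3 and 4 (-0.82) and in the OPP-treated mice (-0.96). Its difference ranged from -0.56 to -0.27 with 1 array left out. Acadvl lost its call without hearts 2 and 4 (-0.22). Of 260 named results 242 kept their side of the threshold under every alternative run. A result not called that changed sign was counted as kept, whether or not it passed there. The causes of these changes were not tested. The median of all tested probes was -0.27, and moved by over 0.1 with the authors' normalised values (-0.45) and with no background correction (-0.17), so that small differences depend on the scaling. The haemoglobin gene Hba-a1 (-1.13) lost its call with median scaling (-0.64) and with the authors' values (-0.66). The replicate block called 3340 probes higher in liver and 4578 higher in heart, 950 and 876 of them at least 4-fold, and among named genes it changed the call of Slc4a1 alone. Transcripts near the liver floor of 6.54 to 6.74 could not be measured in liver, while the heart floor lay at 5.60 to 5.80.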

Other observations

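Parvalbumin (Pvalb), a calcium buffer known from fast skeletal muscle, was detected on all 4 livers at 9.07, 9.01, 9.24 and 9.51 and lay at 5.38, 5.38, 5.63 and 5.18 on the hearts (at least 11.1-fold). The other 6 fast muscle markers on the array were undetected on every liver, and Mybpc2 alone was detected on all 4 hearts. The platelet chemokine gene Pf4 was at 9.47, 9.50, 9.78 and 9.36 in hearts and undetected on every liver (at least 7.42-fold). Of 6 platelet and megakaryocyte markers on the array, 3 were undetected on all 8 arrays. Of the 3 tested, 2 were higher in heart, against 47.3% of all genes, and only 1 by at least 4-fold. Ppbp, another platelet chemokine gene, did not pass (0.15).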
